A study of Mus musculus with 10 samples.

Results

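The genes described here are Mtus2, its paralogue Mtus1 and the core proteins of growing microtubule ends, namely the end-binding genes Mapre1, Mapre2 and Mapre3, the CLASP genes Clasp1 and Clasp2, the CLIP genes Clip1 and Clip2, and the polymerase gene Ckap5. They were taken by symbol, and all 10 were found among the 55385 gene identifiers of the deposited tables. The set was chosen by measured values of the same comparison, since the high level of Mtus2 in the passaged subline was known. The difference of each of these genes between the groups is therefore given as a description, without a p-value. WT31 is a melanoma line from Tyr∷NrasQ61K/°; INK4a−/− mice, in which oncogenic Nras is driven from the tyrosinase promoter in the melanocyte lineage, and both alleles of INK4a are lacking. WT31_P5IV is the subline that was obtained from it by 5 rounds of tail vein injection and recovery from liver metastases, so it shares this origin and is 1 derived line. RNA came from untreated, sub-confluent cells in culture, with 5 libraries of the parental line and 5 of the subline. The labels call the libraries biological replicates, but each group is 1 cell line, so the spread between libraries is a spread between cultures of one line.

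Microtubules grow and shrink mainly at their plus ends. End-binding proteins recognise the growing end and recruit other plus-end tracking proteins, most of which cannot find the end by themselves. CLASPs promote rescue and anchor microtubules near the cell cortex, CLIPs carry the cytoskeleton-associated protein glycine-rich domain and link ends to dynactin and other cargo, and Ckap5 adds tubulin to the end. The 2 MTUS proteins are coiled-coil proteins that bind microtubules and end-binding proteins. Mtus1 is known as an interactor of the angiotensin type 2 receptor and as a tumour suppressor candidate, and Mtus2 is known to bring the depolymerising kinesin Kif2c to plus ends. Microtubule turnover of this kind takes part in cell division, polarity and migration of melanoma cells.

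The Mtus2 gene (ENSMUSG00000029651.16) lies on the plus strand of GRCm38 at chr5:147957320-148316065 and has 11 annotated transcripts in GENCODE M21. Its longest transcript, Mtus2-203, has 15 exons and 7543 bases and begins at the first start of the gene. A second set of transcripts begins 308 kb downstream, inside the gene, and the longest of these, Mtus2-205, has 9 exons and 1792 bases. Further short transcripts are annotated at the first start (738 bases) and 346 kb downstream of it (1009 and 585 bases), so a short mean length does not by itself tell the starts apart. The windows of the 2 starts that have the longest coding transcripts are shown because the groups differ most in this gene. Each window holds 250 bases before and 50 bases after the start as RefSeq gives it for GRCm38.p6, plus strand, 5′ to 3′, and capitals mark each CG dinucleotide.
Mtus2 first start, chr5:147957070-147957369: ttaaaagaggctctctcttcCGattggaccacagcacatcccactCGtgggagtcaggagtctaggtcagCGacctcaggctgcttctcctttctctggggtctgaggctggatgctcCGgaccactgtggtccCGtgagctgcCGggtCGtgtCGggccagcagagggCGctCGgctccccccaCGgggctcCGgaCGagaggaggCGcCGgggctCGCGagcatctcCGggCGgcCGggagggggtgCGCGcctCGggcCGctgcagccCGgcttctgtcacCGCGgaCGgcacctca
Mtus2 second start, chr5:148264967-148265266: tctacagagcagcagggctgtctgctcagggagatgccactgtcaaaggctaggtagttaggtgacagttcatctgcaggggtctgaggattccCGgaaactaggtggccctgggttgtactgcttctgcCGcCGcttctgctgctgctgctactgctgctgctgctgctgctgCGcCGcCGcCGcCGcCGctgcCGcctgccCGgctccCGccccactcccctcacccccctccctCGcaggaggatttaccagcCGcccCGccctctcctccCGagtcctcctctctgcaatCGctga
The window of the first start held 28 CG dinucleotides and had a GC content of 69.0%. The window of the second start held 17 CG dinucleotides and had a GC content of 65.3%. Over 32851 such windows of the genome, the median was 7 CG dinucleotides and 52.7% GC, so both windows lay above the median in both measures. Of 4 motifs searched on both strands (CACGTG and CATGTG, the forms of the E-box that MITF is known to bind, TATAAA and CCAAT), the first window held CCAAT and the second held none of them. CCAAT occurs in 37.4% of all windows, CACGTG in 7.15%, CATGTG in 14.2% and TATAAA in 13.6%.

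Libraries held 24825671 to 25750639 estimated counts in WT31 and 24255389 to 25547694 in WT31_P5IV, and 3 counts, the limit of detection used here, correspond to 0.114 to 0.129 CPM. CPM are counts divided by the library sizes, which were scaled by the TMM method. Such limits cover counting error only. The threshold was a Benjamini-Hochberg adjusted p of 0.05 in the quasi-likelihood test of edgeR, which 68.5% of 13620 genes passed, 34.6% as higher and 33.9% as lower in WT31_P5IV. The libraries of WT31 and WT31_P5IV did not overlap in CPM for 54.1% of the genes, and 9.10% passed the threshold and also changed by 1 or more on the log2 scale. WT31 replicates 2 and 3 stood apart from the other WT31 libraries on the second principal component of log2 CPM, which held 6.79% of the variance, and results that rest on them are given without them as well. Melanocyte markers were at 17046 to 18443 CPM in sum in WT31 and at 22228 to 25729 in WT31_P5IV. They went both ways: of 7 genes, Tyr, Dct and Pmel were higher, Tyrp1 (log2 fold change −0.96) and Sox10 (−0.14) were lower, and Mitf and Mlana did not pass. In TPM, with 0.1 added, 2 were higher and 4 lower, and Tyr, at 0.14 against 0.25 on counts, did not pass. Of the 6 leukocyte markers, Ptprc, Adgre1 and Cd3e were at 3 counts or fewer in every library. Leukocyte markers summed to 0.984 to 2.34 CPM in WT31 and 3.73 to 5.87 in WT31_P5IV, with Cd68 higher. Fibroblast and stellate cell markers summed to 1.77 to 2.51 and 2.86 to 3.57 CPM. Of the 3 tested, Acta2 and Col1a1 were higher (log2 fold changes 1.46 and 1.00), and Pdgfrb (−0.18) did not pass. The part of such cells in the values below was not tested. The summed CPM of the 6 hepatocyte markers was 0.303 to 0.588 in WT31 and 0.402 to 1.30 in WT31_P5IV. Of these, Alb and Apoa1 had 0 counts in every WT31 library and up to 9 and 4 in a WT31_P5IV library. Ttr, the only one tested, did not pass (log2 fold change 0.26). The part of hepatocytes was likewise not tested.

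Mtus2 was near the limit of detection in the parental line and clearly present in the subline. The WT31 libraries held 0, 2, 3, 1 and 0 estimated counts of Mtus2 in the order of their replicate numbers. The WT31_P5IV libraries held 209, 192, 226, 238 and 214. All subline libraries were far above all parental ones, and the groups did not overlap. Summed over the libraries, 6 counts stood against 1079, a ratio of 192 after scaling (95% exact interval 88.0 to 525, counting error only). WT31 replicates 2 and 3 held 5 of the 6 parental counts. The ratio was 308 without replicate 3 (interval 105.1 to 1495) and 686 without both (interval 123 to 27112). Without WT31 replicate 1, 2, 4 or 5 alone it was 154 (interval 70.5 to 420), 229, 185 and 154. The level was 0.0465 ± 0.0507 CPM in WT31 and 8.995 ± 0.654 CPM in WT31_P5IV (mean ± SD, n = 5 each). In bulk RNA, a higher level per cell and a higher share of expressing cells cannot be told apart.

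Per length, Mtus2 was a gene of modest level even in the subline. TPM take account of transcript length and allow levels of genes to be compared. Mtus2 was listed at 0, 0.0718, 0.0562, 0.00782 and 0 TPM in the WT31 libraries and at 5.48, 6.22, 6.19, 7.70 and 7.26 TPM in the WT31_P5IV libraries. The mean of 6.57 TPM in WT31_P5IV lay at the 33.5th percentile of all genes tested. The fitted log2 fold change was 7.44, but with 0 to 3 counts in every parental library it depends on the prior count, and the ratio of counts above is the value to read. The defining neuronal markers Rbfox3, Snap25 and Syt1 had 1 count at most in any library, and the cardiac markers, of interest because Mtus2 is known from heart and brain, summed to 0.353 to 0.594 CPM in WT31 and 0.463 to 0.724 in WT31_P5IV. The 6 neuronal markers summed to 31.05 to 34.4 CPM in WT31 and 41.4 to 45.9 in WT31_P5IV, nearly all of it Gad1, which was higher on counts (log2 fold change 0.44) but did not pass on log2(TPM + 0.1), with 0.06. The part of such cells in the Mtus2 values was not tested.

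**Figure D1:**
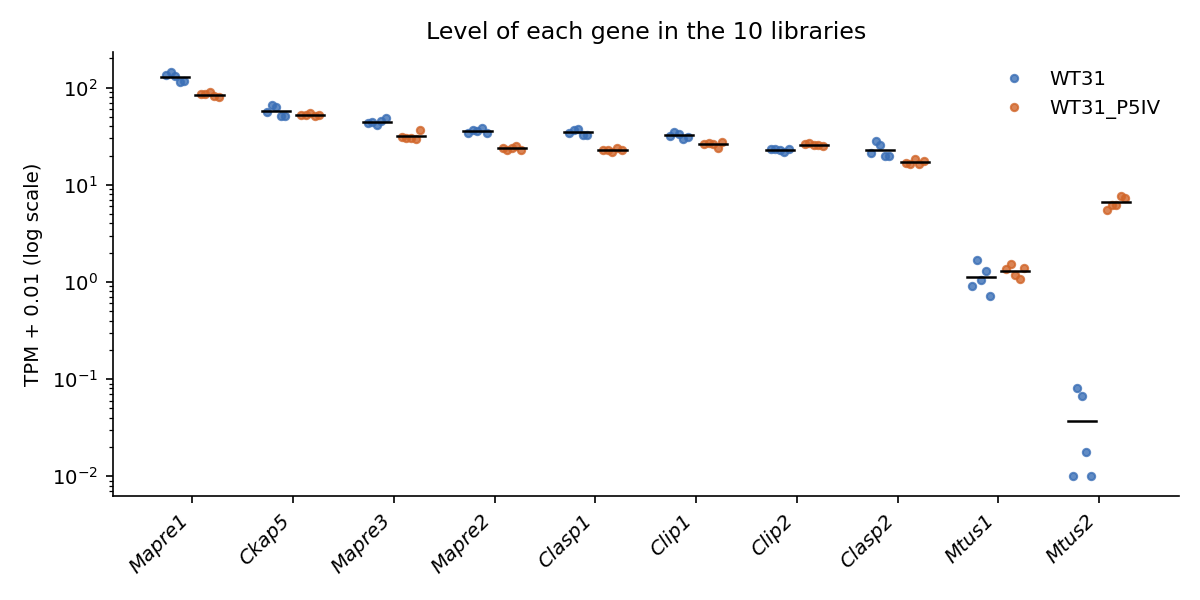
TPM of each gene in the 10 libraries on a log axis after adding 0.01, ordered by the mean in WT31; points are libraries (blue WT31, orange WT31_P5IV) and black lines are group means of 5 libraries. Mtus2 lies between 0 and 0.0718 TPM in WT31 and between 5.48 and 7.70 TPM in WT31_P5IV, while the other genes keep their order of magnitude.

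In TPM, most of the Mtus2 of the subline was assigned to transcripts shorter than Mtus2-203. A gene's estimated count divided by its TPM gives the mean length of the transcripts to which its reads were assigned, once the scale of the library is known from genes with 1 annotated transcript. This recovered the annotated length of 100% of 531 to 553 such genes per library within 1 base. For Mtus2 it gave 2315, 1899, 2154, 1899.6 and 1846 bases in the WT31_P5IV libraries, a mean of 2023 ± 203 bases (SD, n = 5). All 5 values lay just above the 1792 bases of Mtus2-205 and far below the 7543 bases of Mtus2-203. Whatever the other transcripts, at most 22.5% to 28.95% of the Mtus2 TPM of a subline library can have been assigned to Mtus2-203. This limits the share of transcripts and not the share of counts, since 1 long transcript takes more reads than 1 short one. If only Mtus2-203 and Mtus2-205 were used, Mtus2-203 held 0.943% to 9.09% of the TPM, or 4.19% to 31.4% of the counts. The transcripts share sequence, since 86.2% of the exonic bases of Mtus2-205 also lie in exons of Mtus2-203, and reads of the shared part were divided by the authors' estimation. In WT31 the same calculation rests on 1 to 3 counts per library and gave 1823, 3530 and 7543 bases in replicates 2, 3 and 4, from which no preference can be read.

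**Figure D2:**
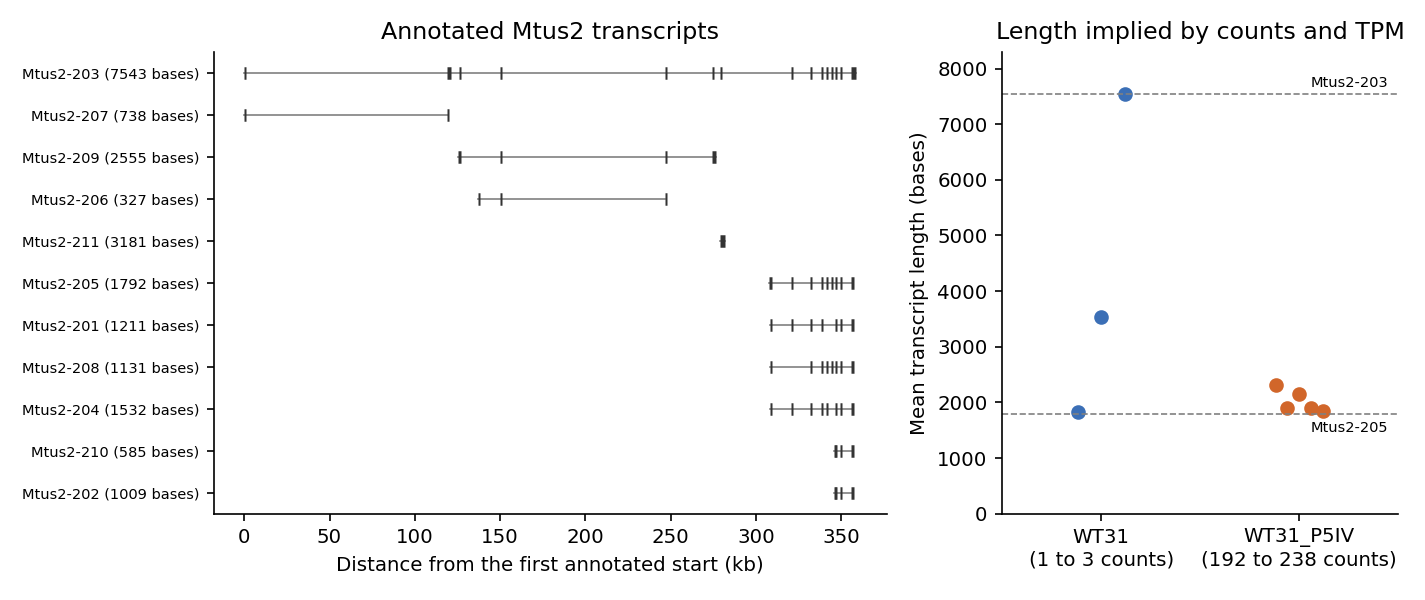
Left, the 11 annotated Mtus2 transcripts with exons as ticks (drawn at least 1.2 kb wide) along the distance from the first start in kb; right, the mean transcript length in bases implied by counts and TPM in each library with a count, with dashed lines at the lengths of Mtus2-203 and Mtus2-205. The 5 WT31_P5IV libraries lie between 1846 and 2315 bases, near the shorter transcript, and the 3 WT31 values rest on 1 to 3 counts each.

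Mtus1, the paralogue, was low in both groups and differed far less. It held 78, 103, 97, 76 and 70 counts in WT31 and 122, 120, 135, 116 and 112 in WT31_P5IV, so the groups did not overlap. In CPM this was 3.30 ± 0.512 against 5.04 ± 0.303 (SD, n = 5 each), a log2 fold change of 0.61 (SE 0.11). In TPM the groups overlapped, with 0.712 to 1.67 in WT31 and 1.06 to 1.52 in WT31_P5IV, and the mean transcript length implied for Mtus1 was 4871 ± 1093 bases in WT31 and 5449 ± 866 bases in WT31_P5IV. WT31 replicates 2 and 3 were the highest of their group in counts, and without them the log2 fold change was 0.76. Mtus1 lies at chr8:40990914-41133726 on the minus strand, and its exons overlap B430010I23Rik and Gm16192 on the other strand, which had 0 to 1 counts per library.

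Within the MTUS pair, the more abundant transcript changed from Mtus1 to Mtus2. Mtus1 made up 98.0% ± 2.49 of the summed TPM of the pair in WT31 and 16.6% ± 3.19 in WT31_P5IV (SD, n = 5 each). In CPM, which do not account for the shorter transcripts of Mtus2, the share of Mtus2 was 1.24% ± 1.29 in WT31 and 64.0% ± 2.34 in WT31_P5IV. The angiotensin receptor genes Agtr1a, Agtr1b and Agtr2 had no more than 3 counts in any library. The receptor with which Mtus1 is known to interact was thus not detectable at this depth.

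The 3 end-binding genes were all lower in WT31_P5IV. Mapre1, the ubiquitous end-binding gene (chr2:153741274-153773310, plus strand), was at 241, 249, 244, 239 and 237 CPM in WT31 and at 185, 180.3, 188, 192 and 184 CPM in WT31_P5IV. The groups did not overlap, and the log2 fold change was −0.38 (SE 0.03). Mapre2, whose product binds growing ends more weakly (chr18:23752333-23893861, plus strand), was at 68.7, 72.1, 70.6, 78.5 and 70.7 CPM in WT31 and at 52.7, 52.1, 51.4, 55.1 and 50.1 CPM in WT31_P5IV. Its log2 fold change was −0.46 (SE 0.04), again without overlap. Mapre3, the end-binding gene known for its high level in neurons and muscle (chr5:30814641-30866106, plus strand), was at 35.4, 32.9, 35.1, 37.1 and 39.0 CPM in WT31 and at 26.96, 24.2, 25.6, 27.6 and 27.2 CPM in WT31_P5IV. Its log2 fold change was −0.45 (SE 0.05), also without overlap.

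The 3 genes kept nearly the same proportions. Per length, Mapre1 made up 61.2% ± 2.97 of the summed end-binding TPM in WT31 and 60.5% ± 2.04 in WT31_P5IV, Mapre2 17.3% ± 1.32 and 17.0% ± 0.831, and Mapre3 21.5% ± 2.04 and 22.6% ± 2.19 (SD, n = 5 each). These shares overlapped between the groups. The sum itself was 208.6 ± 11.3 TPM in WT31 and 139.5 ± 2.23 TPM in WT31_P5IV, and 350.0 ± 4.33 and 264 ± 6.66 in CPM. TPM place the subline lower than CPM do for most genes: on the log2(TPM + 0.1) scale the fold changes of all genes were shifted by a median of −0.17 from those on counts, and differences in TPM are to be read against that shift.

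Both CLASP genes were lower in WT31_P5IV, and both varied among the parental libraries. Clasp1 (chr1:118389058-118612678, plus strand) was at 119, 134, 136, 118 and 114 CPM in WT31 and at 90.5, 92.3, 89.6, 93.8 and 89.8 CPM in WT31_P5IV, a log2 fold change of −0.45 (SE 0.05). Clasp2 (chr9:113741473-113919682, plus strand) was at 64.5, 79.7, 73.8, 62.5 and 61.2 CPM in WT31 and at 56.7, 58.4, 58.4, 57.5 and 57.3 CPM in WT31_P5IV, a log2 fold change of −0.25 (SE 0.06). Neither gene overlapped between the groups, but in both the 2 highest parental libraries were replicates 2 and 3. Without these libraries the log2 fold change was −0.38 for Clasp1 and −0.14 for Clasp2. Clasp1 made up 60.4% ± 2.25 of the pair's TPM in WT31 and 57.1% ± 1.83 in WT31_P5IV.

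The CLIP genes went in opposite directions. Clip2, known mainly from brain (chr5:134489383-134552434, minus strand), was at 73.5, 71.5, 70.4, 70.5 and 76.4 CPM in WT31 and at 93.4, 97.8, 89.4, 91.8 and 86.2 CPM in WT31_P5IV. The log2 fold change was 0.34 (SE 0.04), and every subline library was above every parental one. Clip1, the widely expressed member (chr5:123577795-123684618, minus strand), was at 76.0, 85.3, 87.7, 75.1 and 77.7 CPM in WT31 and at 71.2, 79.0, 72.7, 65.9 and 69.6 CPM in WT31_P5IV. Its log2 fold change was −0.17 (SE 0.06), and subline replicate 2 lay above 3 parental libraries, so the groups overlapped in CPM. Without WT31 replicates 2 and 3 the log2 fold change of Clip1 was −0.11 and it no longer passed the threshold. Clip1 made up 58.3% ± 1.27 of the pair's TPM in WT31 and 50.3% ± 1.58 in WT31_P5IV, with no overlap in this share. Clip2 overlaps the exons of Gm42884 on the other strand, which had 0 to 1 counts per library.

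Ckap5 (chr2:91526762-91620664, plus strand) differed less than its parental libraries did among themselves. It was at 226, 268, 258, 221 and 219.6 CPM in WT31 and at 250.5, 253, 257, 247 and 243 CPM in WT31_P5IV, so that the subline values lay inside the parental range. The log2 fold change was 0.07 (SE 0.05) and did not pass the threshold. WT31 replicates 2 and 3 were again the highest, and without them it was 0.15 and passed. On log2(TPM + 0.1) it was −0.12 and did not pass, so the direction of Ckap5 depends on the scale, and whether it passed depends on the libraries.

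**Figure D3:**
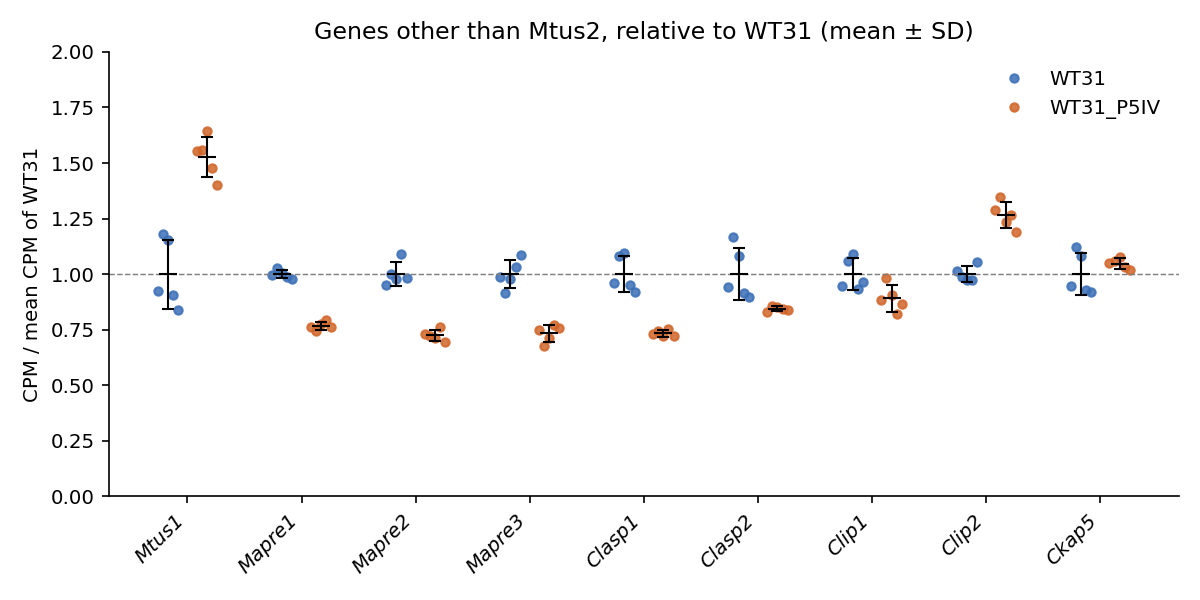
CPM of the 9 genes other than Mtus2 in each library, divided by the gene's mean in WT31 (points; blue WT31, orange WT31_P5IV), with the group mean ± SD of 5 libraries in black. The 3 end-binding genes and Clasp1 lie well below the parental libraries in all subline libraries, Mtus1 and Clip2 above them, and the Ckap5 and Clip1 values overlap.

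Over the whole set, 9 of the 10 genes passed the threshold, 3 of them higher (Mtus1, Mtus2 and Clip2) and 6 lower in WT31_P5IV, beside 68.5% of all genes tested. The groups did not overlap in CPM for 8 genes, beside 54.1% of all genes, and 1 gene, Mtus2, was also past a log2 fold change of 1, beside 9.10%. Since the set was chosen by this comparison, nothing is read from these counts. The median log2 fold change of the 10 genes was −0.21, and that of all genes tested was 0.01.

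In order of TPM, Mapre1 was the highest of the set in both groups, with 127.9 ± 12.7 TPM in WT31 and 84.4 ± 3.58 in WT31_P5IV (SD, n = 5 each). Ckap5 followed with 57.3 ± 6.86 and 52.6 ± 1.61 TPM, and Mapre3 with 44.7 ± 2.69 and 31.4 ± 3.03 TPM. In WT31, Mapre2 at 35.9 ± 1.57 TPM, Clasp1 at 34.6 ± 2.49 and Clip1 at 32.2 ± 2.13 overlapped with their neighbours in the order, as did Clip2 at 22.99 ± 0.664 and Clasp2 at 22.9 ± 3.71. In WT31_P5IV, Clip1 at 26.1 ± 1.43 TPM, Clip2 at 25.8 ± 0.757, Mapre2 at 23.7 ± 0.992 and Clasp1 at 22.8 ± 0.792 overlapped with their neighbours, and Clasp2 stood below them at 17.2 ± 0.784. The last places were taken by Mtus1 and Mtus2, which exchanged their order: Mtus1 was at 1.12 ± 0.371 TPM in WT31 and 1.29 ± 0.183 in WT31_P5IV, below the 6.57 ± 0.897 TPM of Mtus2 there.

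**Figure D4:**
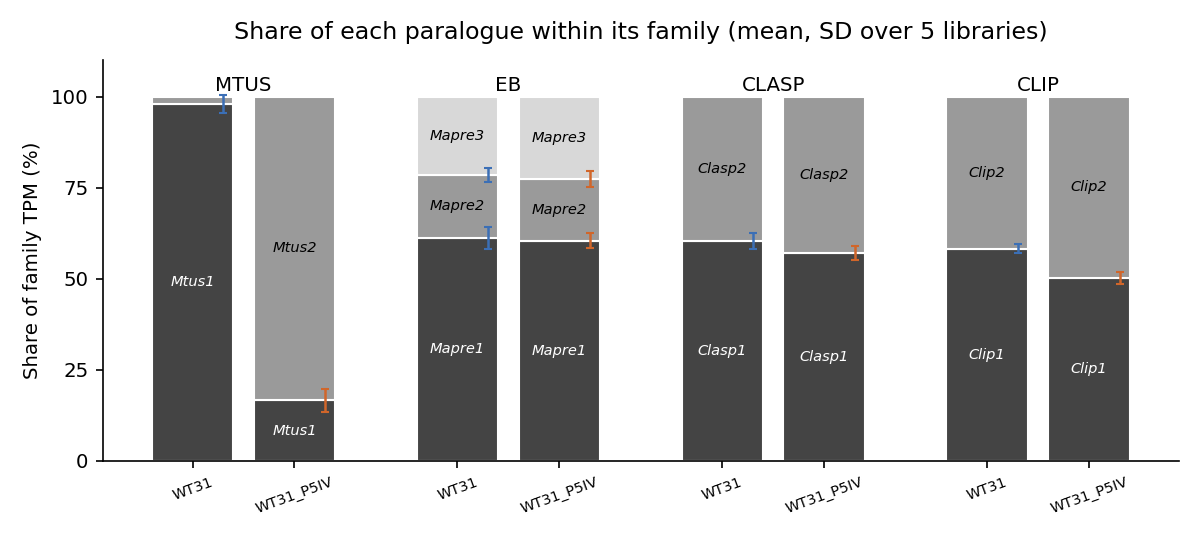
Share of each paralogue in the summed TPM of its family, in percent, for the MTUS, end-binding (EB), CLASP and CLIP families; bars are means of 5 libraries and coloured error bars are SDs of the boundary below them. The MTUS pair passes from 98.0% Mtus1 to 83.4% Mtus2, while the end-binding shares stay within 2 percentage points.

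Further microtubule genes from 6 lists were examined in the same comparison, with p-values adjusted over all genes tested. Of 103 genes listed, 97 were matched and 81 were tested, of which 26 were higher, 37 lower and 18 did not pass. On log2(TPM + 0.1), 12 of the 81 were higher and 46 lower, beside 21.4% of all genes higher and 43.7% lower on that scale. These lists were drawn up with earlier results of the comparison known. On counts, 34.6% of all genes passed as higher and 33.9% as lower. The genes named from these lists, apart from Mapt, were picked for the largest changes among those that passed without overlap in CPM. Because of this choice, their p-values are given as a description and not as evidence for these genes. The libraries of each group are cultures of the same line, so such p-values concern the difference between these cultures only. Of the genes named below that rose, Stim1, Dctn1, Kank1, Kank3, Map7, Dclk2, Camsap3, Stmn1 and Vash1 also passed on log2(TPM + 0.1). Each had a smaller log2 fold change there than on counts, with 0.15 for Dctn1, 0.32 for Stmn1 and 0.48 for Dclk2.

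Among 17 other plus-end tracking genes tested, 5 were higher and 9 lower, with a median log2 fold change of −0.21 beside 0.01 for all genes. Without WT31 replicates 2 and 3, 6 were higher and 8 lower with a median of −0.13. On log2(TPM + 0.1), 2 were higher and 11 lower. Stim1, the calcium sensor of the endoplasmic reticulum that travels with end-binding proteins, rose from 74.2 ± 2.03 to 114 ± 6.31 CPM (log2 fold change 0.62, SE 0.04, adjusted p = 8.67e-09 in edgeR). Dctn1, the dynactin subunit that binds CLIPs and end-binding proteins, rose from 194 ± 4.00 to 237 ± 8.45 CPM (log2 fold change 0.29). Nav2, a neuron navigator, fell from 168 ± 12.2 to 103.7 ± 8.52 CPM (log2 fold change −0.70), and Nde1, a dynein regulator, fell from 142 ± 3.44 to 94.7 ± 2.80 CPM (log2 fold change −0.58). Tacc1, a partner of Ckap5, fell from 729 ± 25.4 to 519 ± 5.51 CPM (log2 fold change −0.49).

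The cortical platform that captures CLASPs showed changes in both directions, with 5 of 11 tested genes higher and 5 lower and a median log2 fold change of 0.06, or 0.03 without WT31 replicates 2 and 3. On log2(TPM + 0.1), 2 were higher and 5 lower. The KANK genes, adaptors that join talin at adhesions to this platform, differed among themselves. Kank1 rose from 12.2 ± 1.00 to 27.9 ± 1.73 CPM (log2 fold change 1.19, SE 0.06, adjusted p = 6.41e-10 in edgeR), and Kank3 rose from 1.18 ± 0.165 to 3.52 ± 0.272 CPM (log2 fold change 1.57). Kank4 fell from 14.5 ± 1.18 to 5.52 ± 0.471 CPM (log2 fold change −1.39, SE 0.08, adjusted p = 8.46e-10 in edgeR). Phldb2, which anchors CLASPs to the cortex, fell from 70.1 ± 7.82 to 42.0 ± 2.25 CPM (log2 fold change −0.74), and Kif21a, a kinesin that damps growth at the cortex, fell with a log2 fold change of −0.53.

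All 15 tested genes of lattice-binding proteins passed, 6 higher and 9 lower, with a median log2 fold change of −0.15, beside 68.5% of all genes that passed. Without WT31 replicates 2 and 3 this was 6 higher and 8 lower, and on log2(TPM + 0.1) it was 5 higher and 9 lower with a median of −0.40. Map1a fell from 51.9 ± 4.69 to 24.4 ± 1.00 CPM (log2 fold change −1.09, SE 0.06, adjusted p = 9.49e-10 in edgeR) and Map1b from 8.80 ± 1.17 to 4.74 ± 0.789 CPM (log2 fold change −0.89), both long stabilising proteins. Mapt, which codes for tau and was picked after its value was seen, rose from 25.9 ± 2.02 to 36.8 ± 1.92 CPM (log2 fold change 0.50). Map7, which activates kinesin-1 transport, rose from 2.14 ± 0.331 to 5.09 ± 0.451 CPM (log2 fold change 1.25). Dclk2, a doublecortin-like kinase, rose from 29.2 ± 1.48 to 51.6 ± 1.38 CPM (log2 fold change 0.82), and Camsap3, which caps minus ends, rose with a log2 fold change of 0.81.

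Of 12 tested genes of depolymerising and severing proteins, 3 were higher, 3 lower and 6 did not pass, with a median log2 fold change of 0.01, or 0.06 without WT31 replicates 2 and 3. On log2(TPM + 0.1), 1 was higher and 4 lower. Kif2c, the kinesin that Mtus2 is known to bind, had 79.1 ± 2.31 CPM in the parental line and 86.8 ± 2.35 CPM in the subline, an increase of 0.13 in log2 (SE 0.04, adjusted p = 0.00345 in edgeR), but on log2(TPM + 0.1) its log2 fold change was −0.0011 and did not pass. Its paralogue Kif2a fell from 75.5 ± 6.41 to 58.3 ± 3.20 CPM (log2 fold change −0.37). Stmn1, which sequesters tubulin, rose from 205 ± 10.7 to 287 ± 9.14 CPM (log2 fold change 0.49). Katnal1, a katanin-like severing protein, fell from 19.2 ± 2.09 to 11.7 ± 0.961 CPM (log2 fold change −0.72).

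Among 13 tested tubulins, 2 were higher, 7 lower and 4 did not pass, with a median log2 fold change of −0.14. Without WT31 replicates 2 and 3 this was 1 higher and 11 lower with a median of −0.22, and on log2(TPM + 0.1) it was 0 higher and 11 lower. Tubb2a fell from 82.0 ± 7.22 to 21.6 ± 1.92 CPM (log2 fold change −1.92, SE 0.07, adjusted p = 1.15e-11 in edgeR), Tubb3 from 531 ± 53.2 to 366 ± 17.7 CPM (log2 fold change −0.54), and Tubb4a from 2.79 ± 0.328 to 0.217 ± 0.124 CPM (log2 fold change −3.65). Beta-tubulin genes are similar in sequence, and how their shared reads were divided could move counts between them.

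Of 13 tested genes for enzymes that modify tubulin, 5 were higher, 4 lower and 4 did not pass, with a median log2 fold change of 0.07. Without WT31 replicates 2 and 3 the median was 0.05. On log2(TPM + 0.1), 2 were higher and 6 lower. Ttll7, a polyglutamylase of beta-tubulin, fell from 8.70 ± 1.03 to 1.05 ± 0.208 CPM (log2 fold change −3.04, SE 0.13, adjusted p = 8.20e-11 in edgeR). Vash1, a tyrosine carboxypeptidase of alpha-tubulin, rose from 22.3 ± 2.58 to 32.1 ± 2.35 CPM (log2 fold change 0.52). Sirt2, a tubulin deacetylase, fell with a log2 fold change of −0.36.

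Many plus-end proteins are used in mitosis, so proliferation genes were set beside them. Of 10 such genes 7 were higher and 0 lower, beside 34.6% and 33.9% of all genes, with a median log2 fold change of 0.12, and Mki67 rose from 479 ± 98.5 to 834 ± 66.5 CPM (log2 fold change 0.80). Without WT31 replicates 2 and 3, 4 were higher and 1 lower, and on log2(TPM + 0.1) 3 were higher and 2 lower, beside 21.4% and 43.7% of all genes on that scale. The part of proliferation in the values of the plus-end genes was not tested.

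**Figure D5:**
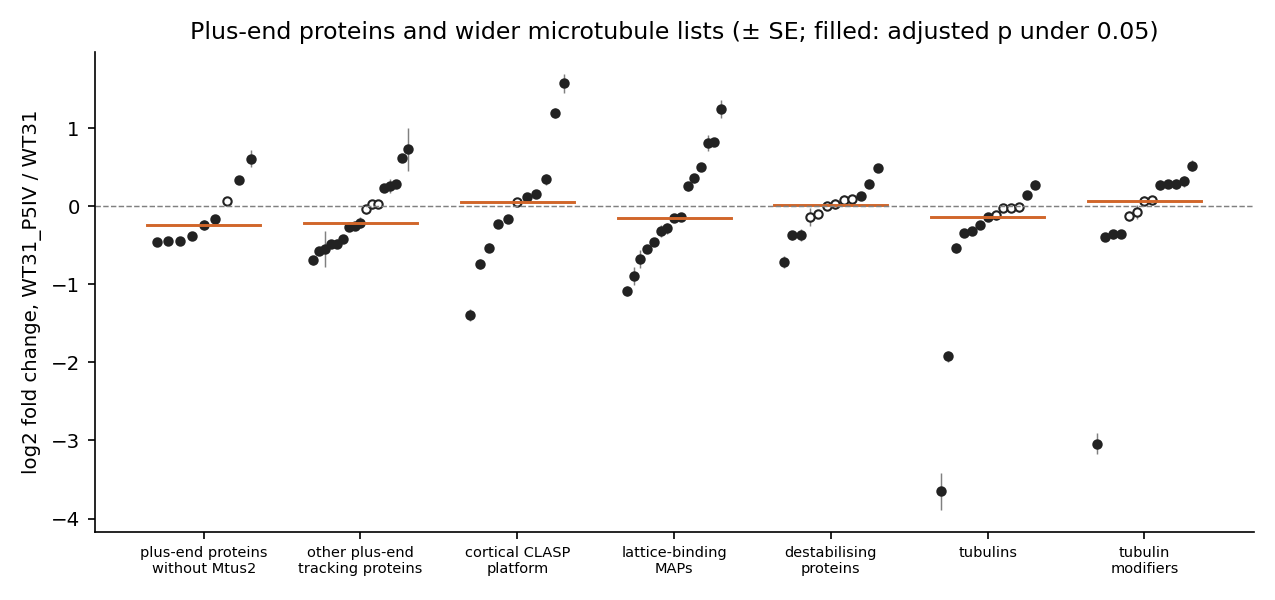
Log2 fold change (WT31_P5IV over WT31, ± SE) of the plus-end genes other than Mtus2 and of the tested genes of 6 wider lists, sorted within each; filled points have an adjusted p under 0.05 in edgeR and orange lines are medians. Each list holds genes on both sides of 0, and the lowest values are those of Tubb4a at −3.65 and Ttll7 at −3.04.

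The genes around Mtus2 did not share its size of change. Of 45 annotated genes that start within 1 Mb of it, 12 were tested, of which 2 were higher, 5 lower and 5 did not pass, beside 34.6% and 33.9% of all genes. Without WT31 replicate 5, 4 were higher. Their median log2 fold change was 0.12, beside 0.02 for the 868 genes tested on chromosome 5. Slc7a1, a transporter of cationic amino acids that follows Mtus2 downstream on the other strand, rose from 249.9 ± 20.1 to 359 ± 24.6 CPM (log2 fold change 0.52, adjusted p = 1.55e-06 in edgeR), and Mtif3 rose with a log2 fold change of 0.35, which on log2(TPM + 0.1) was 0.095 and did not pass. Lnx2 fell with −0.26, Polr1d with −0.12, Pomp with −0.24, Ubl3 with −0.28 and Katnal1 with −0.72. These genes also passed on log2(TPM + 0.1), in the same order with −0.42, −0.30, −0.45, −0.41 and −0.87. D5Ertd605e, Gm43461, Gm43460, Pan3 and Slc46a3 had log2 fold changes of 0.65, 0.30, 0.22, 0.02 and 0.28 and did not pass. Without WT31 replicates 2 and 3, D5Ertd605e had 0.31, Gm43460 0.07 and Pan3 0.08, and none of them passed. Gm15721, a non-coding gene on the other strand that starts 0.154 kb before Mtus2, had 0 to 2 counts per library, and Gm10167 and Gm43553, which lie inside Mtus2, had 0 to 1. The set holds 3 more genes of chromosome 5, of which Clip2 was higher and Mapre3 and Clip1 were lower.

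The genes whose pattern over the 10 libraries was most like that of Mtus2 were found by the root mean square difference of log2(CPM + 0.5), each gene centred on its own mean. Capg, an actin-capping gene, was the nearest with a difference of 0.18, at 0.344 ± 0.0730 CPM in WT31 and 15.6 ± 1.12 in WT31_P5IV. Mst1r, a receptor tyrosine kinase gene, followed with 0.20, at 0.750 ± 0.159 and 19.3 ± 1.72 CPM. Plagl1, an imprinted zinc finger gene, was the third with 0.24, at 1.25 ± 0.0632 and 40.9 ± 1.61 CPM. All 3 had counts above the limit of detection in every WT31 library, whereas Mtus2 did not. Mtus2 was at no more than 0.118 CPM in any WT31 library, below the added 0.5. That constant therefore sets much of the difference of Mtus2 between the groups on this scale. The likeness is one of group difference after the addition, and not of the ratio between the groups.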

How the data were processed

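RNA-seq of cultured WT31 and WT31_P5IV cells was analysed, 5 libraries each, grouped by sample titles. According to the processing notes the authors used Trim Galore 0.6.4 and kallisto with GRCm38.p6, and they deposited estimated counts (not normalised) and TPM summed per gene. The annotation release and the strand setting are not given in the sources used here, and the labels name instruments of 2 makers. Symbols and positions came from GENCODE M21, start windows from RefSeq, where 7 of the 10 genes were read.

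Estimated counts were rounded, kept by filterByExpr (13620 genes), scaled by TMM and tested by edgeR 4.0.16 under R 4.3.3 (glmQLFit, glmQLFTest, p-values adjusted by Benjamini-Hochberg across all genes). The study itself used limma voom, which was an alternative here with limma 3.58.1, as were DESeq2 1.42.0, upper-quartile scaling, other count filters, a replicate block, limma on log2(TPM + 0.1) and log2(TPM + 1), and leaving out each library. Leaving out WT31 replicates 2 and 3 together, and the leave-outs of the summed Mtus2 ratio, were chosen after seeing the data. Ratios of summed counts carry exact 95% intervals. The fits were tested on simulated data. Members and gene lists were chosen with earlier results of these data known. All 10 members are named. In each wider list at most 3 higher and 3 lower genes could be named, with the largest change among those that passed without overlap in CPM. Mapt is an exception to this rule, picked after its value was seen. Every tested neighbour of Mtus2 and the 3 genes most like it are named. Other genes are named as markers, receptors or overlapping genes.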

Additional observations from a re-analysis of the deposited data

How the results depend on the processing

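Every alternative that gave a value for Mtus2 had it higher in WT31_P5IV, and its fitted log2 fold change ranged from 2.87 on log2(TPM + 1) to 8.94 without WT31 replicates 2 and 3, which hold 5 of its 6 parental counts. A filter of at least 10 counts in every library removes the gene, so that alternative gave no value. Of the 10 genes, 2 to 4 were higher and 5 to 6 lower at an adjusted p under 0.05 over all alternatives. Mapre1, Mapre2, Mapre3, Clasp1, Clasp2 and Clip2 passed in the same direction under each of them. Mtus1 did not pass on log2(TPM + 0.1), with 0.24, or on log2(TPM + 1), with 0.13. Clip1 did not pass without WT31 replicates 2 and 3, with −0.11, and Ckap5 passed there alone, with 0.15, over a range of −0.12 to 0.15. On both TPM scales the wider lists had 12 genes higher, and the neighbours of Mtus2 had 1 higher, against 4 without WT31 replicate 5. TPM shifted the fold changes of all genes by a median of −0.17 with 0.1 added and −0.16 with 1 added, and the share of passing genes that were higher went from 50.5% to 32.9% and 32.8%. The cause was not tested. The share of Mtus1 in the MTUS pair moved by −81.4 percentage points in TPM and by −62.8 in CPM. Leaving out single libraries gave log2 fold changes of 7.13 to 8.03 for Mtus2. The replicate numbers of the titles do not pair the samples, since correlations of same-numbered deviations ranged from −0.13 to 0.32 and 2 of 5 WT31 libraries correlated best with their own number. The WT31 file labels carry other numbers, with which no pairing was tried. With the replicate block Mtus2 had 7.44, 3 genes of the set were higher and 6 lower, and 9380 of all genes passed against 9327. With 0 to 3 counts per parental library, depth limits what can be said of Mtus2 there to its being at or under 3 counts.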
